A study of Mus musculus with 10 samples.

Results

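Serum response factor (Srf), its coactivators Myocd, Mkl1 and Mkl2, the upstream activator Abra and the ternary complex factors Elk1, Elk3 and Elk4 were taken as 8 rows of the deposited gene table by their symbols. They are 8 of 23337 genes in the table, and all 8 passed the filter on low counts that left 11870 genes for testing. The study measured polyadenylated RNA by RNA sequencing in cardiomyocytes of 10 mice at postnatal day 14. The knockout group held 5 mice with both Actn2 alleles floxed (F/F), and the heterozygote group held 5 mice with 1 floxed and 1 unfloxed allele (F/+). Mice of both groups were injected on postnatal day 1 with AAV9-cTNT-Cre, an adeno-associated virus that makes Cre recombinase from the cardiac troponin T promoter. The cells were isolated with collagenase and sorted by fluorescence before SMART-Seq amplification of the cDNA. Actn2 encodes alpha-actinin-2, which crosslinks actin filaments at the sarcomeric Z-disc. The controls therefore also carried Cre and 1 deletable allele, and no group without Cre is part of the comparison. Deletion is limited to cells that take up the virus and use the troponin T promoter, and the labels give no sex, littermates or sequencing batch.

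SRF is a MADS-box transcription factor that binds a DNA element called the CArG box and needs partners to set the activity of its targets. Myocardin (Myocd) is a coactivator of heart and smooth muscle, whereas the related MRTF-A (Mkl1) and MRTF-B (Mkl2) are held in the cytoplasm by monomeric actin and enter the nucleus when actin is assembled into filaments. Abra, also called STARS, is an actin-binding protein of striated muscle that promotes this release. The ternary complex factors Elk1, Elk3 and Elk4 are Ets proteins that are phosphorylated by ERK and compete with the myocardin family for SRF.

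Actn2 was at 2677 to 3474 CPM (reads of a gene scaled to the library total after TMM adjustment) in heterozygotes and at 1145 to 1286 CPM in knockouts, so the groups did not overlap and each library matched its label. Total counts ran from 8086656 to 25237696 per library, and members were covered by 45 counts (lowest, Mkl1) to 6582 counts (highest, Myocd) in a single library. Summed RNA of 8 cardiomyocyte markers was 88893 to 112304 CPM in heterozygotes and 84079 to 108590 CPM in knockouts. Summed RNA of 12 endothelial markers was 582 to 967 CPM against 411 to 703 CPM, with 12 of 12 at a negative fold change and 2 called lower. Fibroblast markers summed to 330 to 538 against 318 to 648 CPM, smooth muscle and pericyte markers to 187 to 350 against 236 to 352 CPM, and leukocyte markers to 15.4 to 39.5 against 8.83 to 12.3 CPM. Of the 8 smooth muscle and pericyte markers, 6 had a negative fold change (median log2 -0.33), while Cspg4 alone was called higher, from 37.0 to 132 CPM in the mean. Tnni3 and Csf1r were called lower. In these bulk samples, fewer cells of a type and less RNA per cell cannot be told apart.

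Of the 8 genes, 3 were called higher in the knockout and 0 lower (edgeR quasi-likelihood test, Benjamini-Hochberg adjusted p below 0.05). Among all tested genes 18.9% were called, 10.2% higher and 8.64% lower. Called genes were 54.3% higher in direction with TMM scaling and 68.9% higher with library totals alone. The coactivators Myocd and Mkl2 and the ternary complex factor Elk4 rose, while Srf, Mkl1, Abra, Elk1 and Elk3 did not pass the test. In each of the 3 called genes, every knockout lay above every heterozygote, a separation in either direction seen in 14.7% of all tested genes.

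**Figure D1:**
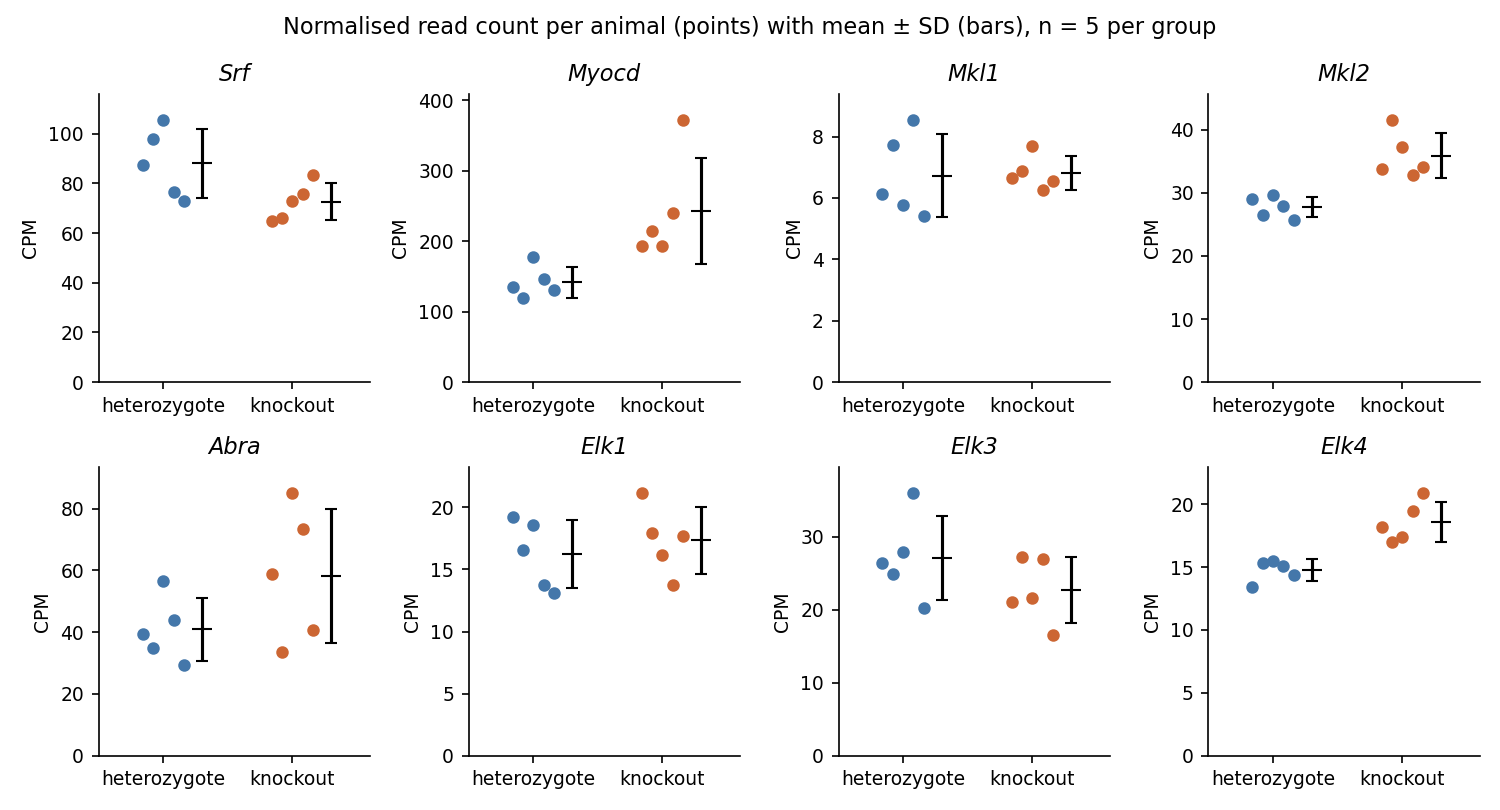
Normalised read count (CPM, linear axis from 0) of the 8 genes in each animal, with heterozygotes in blue, knockouts in orange and bars for mean ± SD (n = 5 each). The groups are apart for Myocd, Mkl2 and Elk4 and overlap for the other 5 genes.

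Srf itself, at chr17:46546839-46556162 (mm10, minus strand, 7 exon blocks), was at 87.3, 97.9, 105.6, 76.5 and 72.8 CPM in heterozygotes 1 to 5. In knockouts 1 to 5 it was at 65.0, 66.2, 73.1, 75.7 and 83.5 CPM. All 5 knockouts were below the heterozygote mean, but only knockouts 1 and 2 were below the lowest heterozygote. The means were 88.0 ± 13.9 and 72.7 ± 7.53 CPM (SD, n = 5 each), a log2 fold change of -0.27 (SE 0.116, 95% interval -0.52 to -0.03). The unadjusted p was 0.0325 and the edgeR adjusted p was 0.117, so Srf was not called. With a per-sample offset for gene length the log2 fold change was -0.35 and passed the test (edgeR adjusted p = 0.0450).

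Windows of RefSeq promoters (250 bases before to 50 after the start site) were matched for 6 of the 8 genes, not for Myocd and Abra. Of these 6, only Srf held a CArG box, here CC, then 6 bases of A or T, then GG. It is printed because the 2 boxes, at 82 and 62 bases before the start, place Srf among the genes that carry the element its own product binds. Capitals mark the CArG boxes and, before them, the Ets core CCGGAA, a sequence that Ets proteins such as the ternary complex factors recognise. The window is chr17:46556113-46556412 on the minus strand of GRCm38.p6, written 5′ to 3′.
Srf promoter: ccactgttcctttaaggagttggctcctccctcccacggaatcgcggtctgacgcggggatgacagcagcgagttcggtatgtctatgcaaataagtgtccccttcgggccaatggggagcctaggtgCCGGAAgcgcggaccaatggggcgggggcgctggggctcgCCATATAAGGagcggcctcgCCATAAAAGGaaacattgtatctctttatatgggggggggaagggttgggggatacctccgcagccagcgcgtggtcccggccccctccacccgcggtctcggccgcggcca
A CArG box on either strand was present in 1.63% of 32851 RefSeq promoter windows and the Ets core in 14.9%. Among the 9462 tested genes with a window, 1.6% held a CArG box and 32% an Ets core in at least 1 window, beside 1 and 3 of the 6 members. Mkl1, Elk1 and Elk3 held neither motif, Elk4 held the Ets core in its first window, and Mkl2 held 1 Ets core, on the opposite strand, shared by 2 overlapping windows. A motif match describes the letters of the window and does not show binding.

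Among the coactivators, Myocd (chr11:65176571-65269989, minus strand, 27 exon blocks) was at 135.0, 119.4, 177.2, 146.9 and 130.8 CPM in heterozygotes 1 to 5. Its knockout values were 192.6, 215.0, 192.6, 239.7 and 372.4 CPM. Knockout 5 was far above the other 4, and the lowest knockout was above the highest heterozygote. The mean rose from 142 ± 22.1 to 242 ± 75.2 CPM, 1.71-fold (95% interval 1.32 to 2.22, edgeR adjusted p = 0.00644). Without knockout 5 the log2 fold change was 0.57 in place of 0.77 and was still called (edgeR adjusted p = 0.00765). Myocd was called in all 10 fits that left out 1 animal.

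Mkl2, the gene of MRTF-B (chr16:13256481-13417529, plus strand, 36 exon blocks), was at 28.9, 26.5, 29.6, 27.9 and 25.7 CPM in heterozygotes. In knockouts it was at 33.7, 41.5, 37.3, 32.7 and 34.1 CPM. The heterozygotes spanned a narrow range, and all 5 knockouts lay above it. The mean rose from 27.7 ± 1.63 to 35.9 ± 3.59 CPM, 1.29-fold (95% interval 1.12 to 1.5, edgeR adjusted p = 0.0162). Mkl2 has the longest summed exons of the 8 genes, 8987 bases. With the gene-length offset its log2 fold change was 0.15 in place of 0.37 and the call was lost (edgeR adjusted p = 0.264).

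Mkl1, the gene of MRTF-A (chr15:81012281-81190757, minus strand, 27 exon blocks), had the fewest counts of the 8 genes. Its heterozygote values were 6.13, 7.74, 5.77, 8.55 and 5.41 CPM, and its knockout values were 6.66, 6.87, 7.71, 6.26 and 6.56 CPM. The knockouts lay inside the heterozygote range in every case. The log2 fold change was 0.02 (95% interval -0.34 to 0.39, edgeR adjusted p = 0.941), and its sign turned under upper-quartile scaling. The interval still allows a rise as large as that measured for Mkl2. The difference between the 2 fold changes was not tested. Of its exon bases, 13 (0.282%) overlap Sgsm3.

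Abra (chr15:41865293-41869720, minus strand, 2 exon blocks) had the widest relative spread of the 8 genes in both groups. Heterozygotes were at 39.5, 35.0, 56.5, 44.1 and 29.2 CPM, and knockouts at 58.7, 33.5, 85.0, 73.4 and 40.6 CPM. Knockouts 1, 3 and 4 were above the highest heterozygote, whereas knockouts 2 and 5 lay within the heterozygote range. The means were 40.9 ± 10.3 and 58.2 ± 21.6 CPM, a log2 fold change of 0.51 (95% interval 0.01 to 1.01). The unadjusted p was 0.0478 and the edgeR adjusted p 0.150, so Abra was not called.

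The ternary complex factor Elk4, also called SAP-1 (chr1:132007605-132025684, plus strand, 5 exon blocks), was at 13.4, 15.3, 15.5, 15.1 and 14.4 CPM in heterozygotes. Knockouts were at 18.2, 17, 17.4, 19.5 and 20.9 CPM. The lowest knockout lay above the highest heterozygote. The mean rose from 14.7 ± 0.870 to 18.6 ± 1.59 CPM, 1.27-fold (95% interval 1.07 to 1.49, edgeR adjusted p = 0.0464). The call was kept in 1 of the 10 fits that left out an animal, the fit without heterozygote 2, with edgeR adjusted p between 0.0404 and 0.122 over the 10. It was also lost in 6 of the 11 other settings, among them RLE scaling (edgeR adjusted p = 0.0520), upper-quartile scaling (0.0637), no filter (0.0772), the length offset (0.0833) and the endothelial covariate (0.178), while the log2 fold change stayed between 0.29 and 0.42 over all alternatives.

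Elk1, the best known ERK substrate of the family (chrX:20933395-20950608, minus strand, 6 exon blocks), was at 13.1 to 19.2 CPM in heterozygotes (median 16.6) and at 13.8 to 21.1 CPM in knockouts (median 17.7). The log2 fold change was 0.09 (95% interval -0.23 to 0.41, edgeR adjusted p = 0.722). Elk3, also called Net (chr10:93247416-93311159, minus strand, 5 exon blocks), was at 26.4, 24.9, 27.9, 36 and 20.2 CPM in heterozygotes and at 21.0, 27.2, 21.7, 27.0 and 16.6 CPM in knockouts. The groups overlapped, with a log2 fold change of -0.26 (95% interval -0.61 to 0.10, edgeR adjusted p = 0.312).

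**Figure D2:**
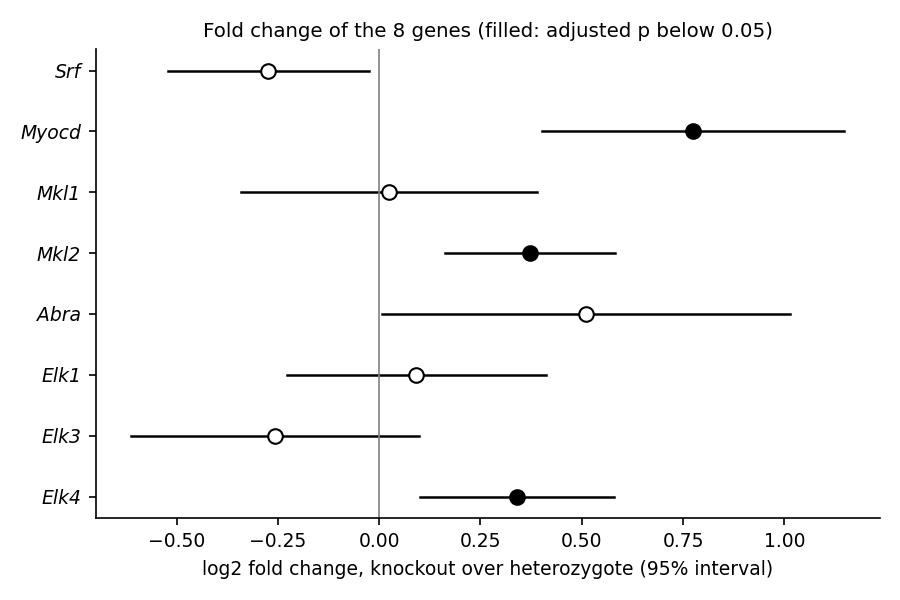
Log2 fold change of knockout over heterozygote for the 8 genes with 95% intervals, filled where the edgeR adjusted p was below 0.05. The filled points are Myocd at 0.77, Mkl2 at 0.37 and Elk4 at 0.34, and the interval of Srf runs from -0.52 to -0.03 although it was not called.

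The animals highest and lowest for Elk3, heterozygote 4 and knockout 5, were also those highest (967 CPM) and lowest (411 CPM) for summed endothelial markers. With the endothelial marker score as a covariate, the fitted log2 fold change of Elk3 was 0.15 in place of -0.26 (edgeR adjusted p = 0.596). The same covariate left the fold changes of Myocd at 0.69, Mkl2 at 0.40 and Elk4 at 0.35, and none of these passed the test (edgeR adjusted p = 0.0894, 0.0831 and 0.178). The score itself was 5.37 to 6.20 in heterozygotes and 4.90 to 5.66 in knockouts (mean log2 CPM of the 12 markers). Under this covariate 1117 genes of the whole table were called in place of 2241. The part of endothelial RNA in the differences was not tested.

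**Figure D3:**
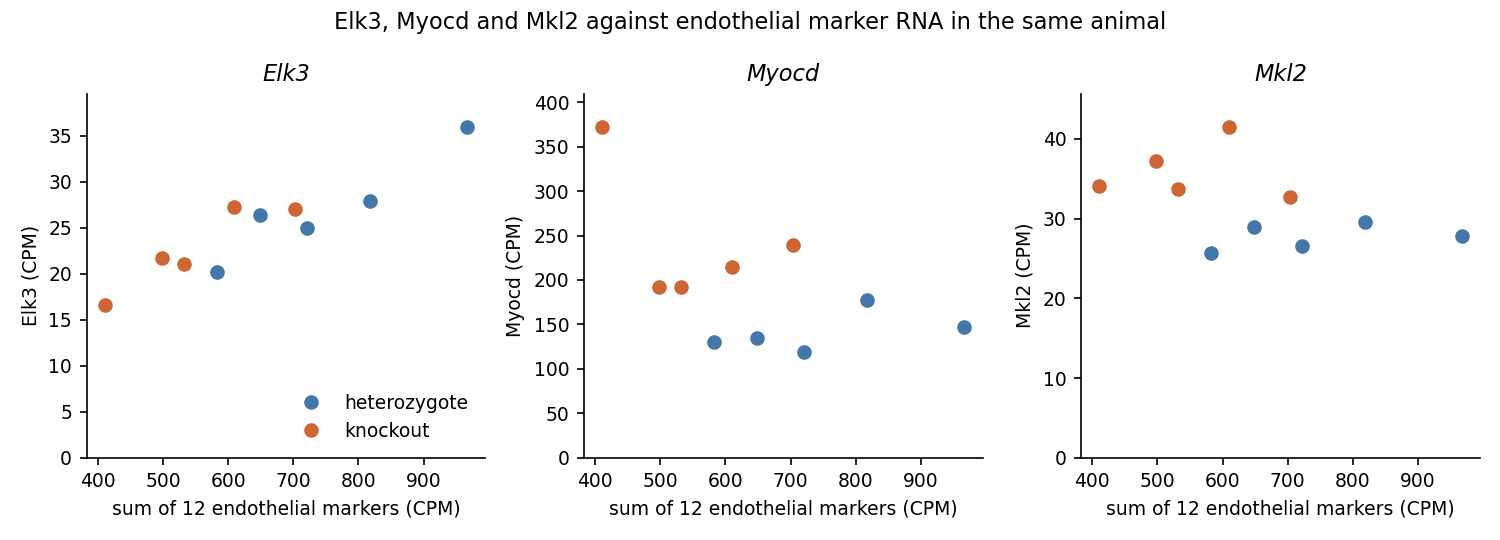
CPM of Elk3, Myocd and Mkl2 (vertical axes from 0, linear) against the summed CPM of 12 endothelial markers in the same animal (horizontal axes do not start at 0), heterozygotes in blue and knockouts in orange (n = 5 each). The highest and lowest animals for Elk3 are those with 967 and 411 CPM of endothelial markers. For Myocd and Mkl2 every knockout lies above every heterozygote, whatever the marker sum.

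Levels were compared between genes as RPKM, that is CPM per kilobase of summed exons, which removes the gene length that CPM contains. In heterozygotes the order was Myocd (27.7 ± 4.32), Abra (23.2 ± 5.86), Srf (21.5 ± 3.39), Elk3 (6.40 ± 1.36), Elk1 (4.58 ± 0.777), Elk4 (4.02 ± 0.237), Mkl2 (3.08 ± 0.182) and Mkl1 (1.46 ± 0.294 RPKM). The ranges over animals overlapped among Myocd, Abra and Srf, between Elk3 and Elk1 and between Elk1 and Elk4. They did not overlap between Srf and Elk3, Elk4 and Mkl2, or Mkl2 and Mkl1. In knockouts the order was the same except that Elk4 (5.07 ± 0.433) stood above Elk1 (4.89 ± 0.760 RPKM).

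**Figure D4:**
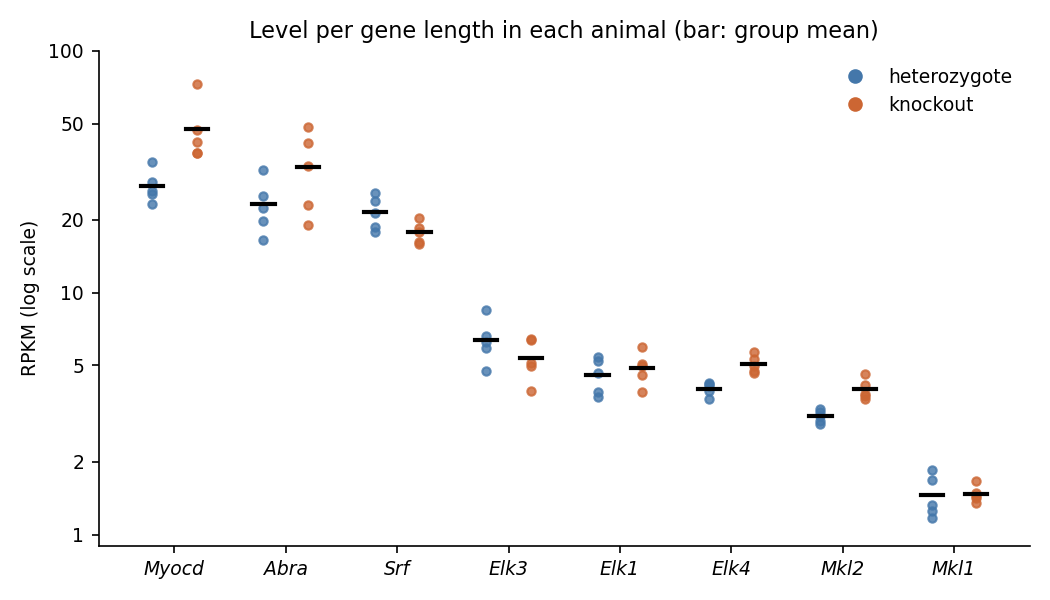
RPKM of the 8 genes in each animal on a log axis, ordered by the heterozygote mean, with black bars for the group means (n = 5 each). Myocd, Abra and Srf lie between 15.9 and 72.8 RPKM in every animal and the other 5 genes between 1.17 and 8.49 RPKM.

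Myocd made up most of the coactivator RNA per length, 85.8 ± 1.81% of the sum of Myocd, Mkl2 and Mkl1 in heterozygotes and 89.1 ± 2.75% in knockouts. The share of Mkl2 was 9.65 ± 0.885% against 7.96 ± 2.02%, and that of Mkl1 was 4.59 ± 1.15% against 2.95 ± 0.771%. The sum of the 3 coactivators was 28.0 to 39.2 RPKM in heterozygotes and 42.8 to 78.0 RPKM in knockouts, without overlap. Most of this sum was Myocd, so its separation restates that of Myocd. The sum of the 3 ternary complex factors was 15 ± 1.61 and 15.3 ± 0.771 RPKM. Within it Elk3 had 42.4 ± 5.21% against 34.9 ± 5.91%, Elk4 had 27.0 ± 3.08% against 33.2 ± 3.80%, and Elk1 had 30.6 ± 4.43% against 31.9 ± 4.63%. Myocd per Srf, both in RPKM, was 0.976 to 1.54 in heterozygotes (median 1.34) and 2.11 to 3.57 in knockouts (median 2.53). The ratios did not overlap, and neither did Myocd alone. Abra per Srf was 0.831 to 1.34 (median 1.05) and 1.13 to 2.70 (median 2.10), with overlap. Shares, sums and ratios are descriptions and were not tested.

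For each of the 8 genes, the 3 genes most like it over the 10 animals were found by the root-mean-square difference of centred log2 CPM. The nearest to Myocd were Aff4 (0.153), Aff1 (0.160) and Hivep2 (0.185). The nearest to Srf were Pcnt (0.0670), Tenc1 (0.0768) and Tbc1d1 (0.0802), and the nearest to Mkl2 were Zzz3 (0.0733), Dsp (0.0802) and Uggt1 (0.0816). For Elk4 they were Lrrfip1 (0.0672), Fam168b (0.0687) and Hgs (0.0717), and for Elk3 they were Adal (0.0965), Gpr116 (0.131) and Btbd3 (0.135). For Elk1 they were Myo1c (0.105), Hps5 (0.111) and Heatr2 (0.111), and for Mkl1 they were Ptplb (0.0959), Jagn1 (0.114) and 2310046O06Rik (0.115). Abra had the most distant neighbours, Trib1 (0.273), Cdc42ep2 (0.282) and Sap30 (0.294). The measure is smaller for genes that vary little, so it does not rank the members against each other.

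Upstream of the MRTFs, 34 genes of actin turnover and its control were tested, of which 8 rose and 1 fell. The share called was 26.5%, beside 18.9% of all tested genes. The median log2 fold change was 0.18, beside 0.0023 over all tested genes. Rhoc, a small GTPase that drives actin assembly, rose from 70.0 ± 10.5 to 148 ± 20.2 CPM (log2 1.08, edgeR adjusted p = 3.85e-05). Daam1, a formin that elongates actin filaments, rose from 67.4 ± 8.99 to 119 ± 10.6 CPM (log2 0.82, edgeR adjusted p = 0.000112). Grlf1, which encodes a GTPase-activating protein, rose by 0.54 on the log2 scale and Arhgef12, a guanine nucleotide exchange factor, rose by 0.49 (edgeR adjusted p = 0.00130 and 0.00234). With the gene-length offset the log2 fold changes of Grlf1 and Arhgef12 were 0.31 and 0.27, and both were still called (edgeR adjusted p = 0.0243 and 0.0316). For these 4 genes knockouts and heterozygotes did not overlap. Rhoa (213 ± 9.88 and 196 ± 17.8 CPM), Rock1 (133 ± 24.3 and 125 ± 10.3 CPM) and Pfn1 (227 ± 16.9 and 227 ± 14.7 CPM) were not called.

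Of 29 tested partners and modifiers of SRF, 2 rose, 2 fell and 25 did not pass the test (median log2 0.07). The share called was 13.8%, beside 18.9% of all tested genes. Ep300, a histone acetyltransferase recruited by myocardin, rose from 24.8 ± 2.09 to 38.9 ± 3.31 CPM (log2 0.65, edgeR adjusted p = 0.000476). Csrp3, a LIM protein of the Z-disc, rose from 1470 ± 114 to 2033 ± 332 CPM (log2 0.47, edgeR adjusted p = 0.00835). Klf4, a factor that opposes myocardin in smooth muscle, fell from 25.8 ± 7.71 to 13.2 ± 2.12 CPM (log2 -0.97, edgeR adjusted p = 0.00333). Klf4 is also made by endothelial cells, whose markers were lower in the knockout as given above. The part of endothelial RNA in the fall of Klf4 was not tested. Stub1, a ubiquitin ligase, was called lower (log2 -0.40, edgeR adjusted p = 0.0415), but 41% of its exon bases overlap Jmjd8 and its count is uncertain. The cardiac factors Gata4 (304 ± 38.0 and 369 ± 16.4 CPM) and Nkx2-5 (76.9 ± 18.2 and 75.6 ± 3.10 CPM) and the inhibitory cofactor Hopx (844 ± 136 and 886 ± 77.5 CPM) were not called. With library totals alone, 8 partners were called in place of 4, and with the endothelial covariate 1 was called. Under that covariate Csrp3 was at 0.39 and Klf4 at -0.60 on the log2 scale and neither passed the test (edgeR adjusted p = 0.120 and 0.110). With the gene-length offset Ep300 was at 0.43 and still called (0.0105).

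Upstream of the ternary complex factors, 20 genes of the ERK cascade were tested (median log2 0.09) and 20% were called, beside 18.9% of all tested genes. Of the 20 genes, 4 rose and 0 fell. They were Spry4, a feedback inhibitor of the cascade (log2 0.55, edgeR adjusted p = 0.0387), the exchange factor Sos1 (log2 0.40, 0.0463), the GTPase Nras (log2 0.33, 0.0470) and the kinase Map2k1 (log2 0.30, 0.0443). Between 0 and 3 genes of the list were called when 1 animal was left out. The count was 0 without heterozygote 2, knockout 3 or knockout 4. With the gene-length offset Sos1 was at 0.17 on the log2 scale (edgeR adjusted p = 0.379), and with the endothelial covariate it was at 0.25 (0.392). The kinase Mapk3 (38.9 ± 4.77 and 37.0 ± 4.22 CPM) and the feedback phosphatase Dusp6 (25.4 ± 4.59 and 28.2 ± 5.66 CPM) were not called. Map2k2 (log2 -0.35, edgeR adjusted p = 0.0588) and Hras1 (log2 -0.34, 0.0699) were not called either, but every knockout lay below every heterozygote. Such a separation in either direction was seen in 14.7% of all tested genes. The list summed to a median of 1285 CPM in heterozygotes and 1283 CPM in knockouts.

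Known SRF targets were described in 4 lists, which hold genes chosen with earlier results of these data known. Among 12 tested targets of the smooth muscle kind, 2 rose and 5 fell (median log2 -0.59). Acta2, smooth muscle actin, fell from 714 ± 135 to 202 ± 42.6 CPM (log2 -1.82, edgeR adjusted p = 3.98e-06). Myl9, a myosin light chain, fell by 0.79 and Smtn, an actin-binding protein, fell by 0.52 on the log2 scale (edgeR adjusted p = 0.0105 and 0.00902). Pdlim7, an actin-associated LIM protein, rose from 50.1 ± 9.95 to 129 ± 23.6 CPM (log2 1.37, edgeR adjusted p = 2.92e-05), and tropomyosin Tpm2 rose by 0.80 (0.0472). With the endothelial covariate 3 genes of the list were called, and Smtn and Tpm2 were not (edgeR adjusted p = 0.107 and 0.154). The count was 4 to 7 when 1 animal was left out, and it was 4 without heterozygote 2 or 5 or knockout 1, 2 or 5. Beside this list, 6 of 8 smooth muscle and pericyte markers had a negative fold change and none of the 6 was called. The other 2 went the other way, Cspg4 called higher (log2 1.84, edgeR adjusted p = 1.23e-06) and Mcam not called (log2 0.35, 0.0889). The 8 markers summed to a median of 247 CPM in heterozygotes and 337 CPM in knockouts. This sum includes Cspg4, whose mean was 37.0 CPM in heterozygotes and 132 CPM in knockouts, so it does not show the direction of the other markers. The part of such cells in the result was not tested. Myh11, the myosin that defines smooth muscle cells, was at 18 ± 8.00 and 11.4 ± 4.91 CPM and was not called.

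Among 23 striated muscle targets, 12 rose and 2 fell (median log2 0.43). The largest rises were those of Casq1, the calsequestrin of skeletal muscle, from 37.8 ± 13.1 to 747 ± 319 CPM, of the natriuretic peptide gene Nppa from 107 ± 67.7 to 1709 ± 539 CPM and of the beta myosin heavy chain Myh7 from 445 ± 316 to 6394 ± 2908 CPM. Ankrd1, a stretch-responsive ankyrin repeat protein, rose from 534 ± 155 to 4187 ± 1296 CPM. Their log2 fold changes were 4.30, 3.99, 3.85 and 2.97 (edgeR adjusted p = 8.34e-07, 7.11e-06, 0.000480 and 1.35e-06). Of the exon bases of Myh7, 7.65% overlap D830015G02Rik. Muscle creatine kinase, Ckm, fell by 1.00 and tropomyosin Tpm1 fell by 0.51 on the log2 scale (edgeR adjusted p = 4.12e-05 and 0.000296).

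Among 27 cytoskeletal targets, 6 rose and 2 fell (median log2 0.06). The matricellular gene Ctgf rose from 138 ± 47.2 to 409 ± 152 CPM, the focal adhesion genes Zyx from 99.0 ± 23.9 to 214 ± 24.8 and Tln1 from 150 ± 24.9 to 301 ± 26.1, and the integrin Itga5 from 154 ± 20.6 to 297 ± 19.8 CPM. Their log2 fold changes were 1.56, 1.11, 1.00 and 0.95 (edgeR adjusted p = 0.000833, 0.000176, 4.63e-05 and 2.78e-05). Cytoplasmic actin Actg1 fell by 0.63 and calponin Cnn2 fell by 0.58 on the log2 scale (edgeR adjusted p = 0.00337 and 0.0241). The other cytoplasmic actin, Actb, was at 369 ± 78.9 and 326 ± 47.5 CPM and was not called. With the endothelial covariate 5 genes of this list were called in place of 8, and neither Actg1 (log2 -0.56, edgeR adjusted p = 0.0582) nor Cnn2 (log2 -0.33, 0.364) passed the test.

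Among 23 tested immediate early genes, the class served by ternary complex factors, 1 rose and 6 fell (median log2 -0.55). The phosphatase Dusp5 fell by 1.02, the transcription factors Klf2 and Junb fell by 0.82 and 0.81, and the phosphatase Dusp1 fell by 0.74 on the log2 scale (edgeR adjusted p = 0.0315, 0.00333, 0.0459 and 0.0193). Ier5 rose by 0.89 (edgeR adjusted p = 0.0492), but it was called in 1 of the 10 fits that left out an animal and in 4 of the 11 other settings. In the same 10 fits Junb was called in 2, Dusp5 in 5, Dusp1 in 9 and Klf2 in 10. In the 11 other settings Junb was called in 6, Dusp5 in 8, Klf2 in 10 and Dusp1 in 11. Fos (131 ± 85.6 and 64.2 ± 32.5 CPM, edgeR adjusted p = 0.147) and Egr1 (69.8 ± 36.3 and 40.8 ± 19.4 CPM, 0.178) were not called and varied widely among heterozygotes. Between 2 and 8 genes of the list were called when 1 animal was left out, with 2 without knockout 2, 3 without heterozygote 1 or knockout 1 and 4 without heterozygote 2 or knockout 3, 4 or 5. With the endothelial covariate or the gene-length offset 3 were called, and with Y-linked expression as a covariate 4 were called. With the endothelial covariate Klf2, a known endothelial gene, was at -0.41 on the log2 scale (edgeR adjusted p = 0.0739) and Dusp5 at -0.81 (0.244), neither called. Under the same covariate Junb (-1.21, 0.0298) and Dusp1 (-0.97, 0.0307) were further below 0 than without it and were still called. The lower endothelial marker sums stand beside this list as well, and their part was not tested.

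**Figure D5:**
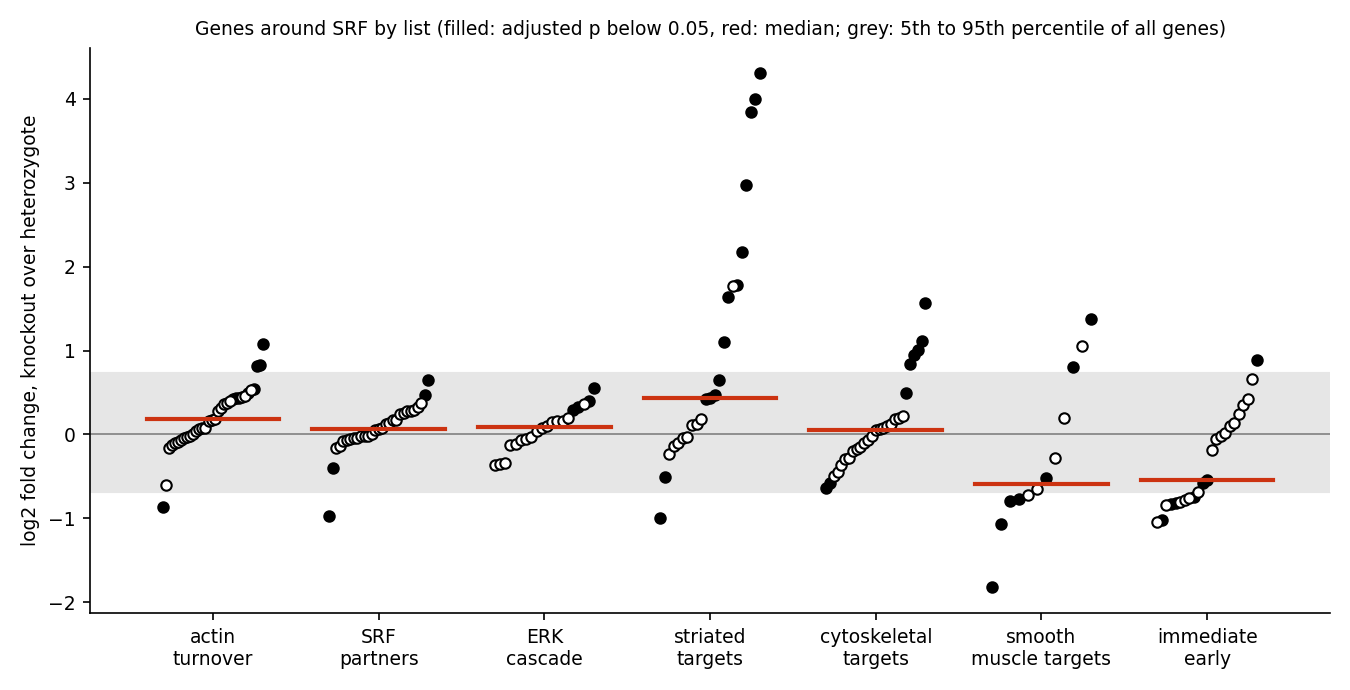
Log2 fold change of knockout over heterozygote for the tested genes of 7 lists around SRF, filled where the edgeR adjusted p was below 0.05, with the list median in red and the 5th to 95th percentile of all tested genes (-0.685 to 0.736) in grey. The medians of the smooth muscle (-0.59) and immediate early (-0.55) lists lie below 0 and that of the striated list (0.43) above 0.

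A CArG box was found in the promoter windows of 1 of 9 smooth muscle, 5 of 20 striated, 7 of 23 cytoskeletal and 2 of 19 immediate early targets that had a window. The boxes of the 8 called genes among them are shown, with the box in capitals and 30 bases in all (GRCm38.p6), since they carry the same element in genes that moved in opposite directions.
Acta1, higher: tgcccgacacCCAAATATGGcttgggaagg
Fhl1, higher: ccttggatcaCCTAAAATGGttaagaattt
Dmd, higher: catgggcagtCCTATTATGGgaaagcaact
Actg1, lower: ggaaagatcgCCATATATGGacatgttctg
Cnn2, lower: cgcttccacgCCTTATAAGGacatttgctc
Myl9, lower: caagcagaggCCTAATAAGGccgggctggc
Zfp36, lower: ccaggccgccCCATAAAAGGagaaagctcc
Dusp5, lower, first box: ggggaaatacCCATATTTGGccttatatgg
Dusp5, lower, second box: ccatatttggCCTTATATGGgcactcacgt
The 30-base stretches, each with its box in the middle, lie at chr8:123894829-123894858 (Acta1), chrX:56779571-56779600 (Fhl1) and chrX:82948762-82948791 (Dmd) for the genes that rose. For the genes that fell they lie at chr11:120348566-120348595 (Actg1), chr10:79988534-79988563 (Cnn2), chr2:156775293-156775322 (Myl9), chr7:28379267-28379296 (Zfp36), and chr19:53529053-53529082 and chr19:53529063-53529092 (Dusp5). Acta1, Actg1 and Zfp36 are on the minus strand and the other 5 genes on the plus strand. Acta1, skeletal actin, rose from 158 ± 115 to 541 ± 427 CPM with overlap between the groups (log2 1.78, edgeR adjusted p = 0.0429). Fhl1, a LIM protein of muscle, rose from 96.2 ± 12.3 to 299 ± 127 CPM (log2 1.64, edgeR adjusted p = 0.000147), and Dmd, the dystrophin gene, rose by 0.47 on the log2 scale (0.00940). Zfp36, a protein that destabilises messenger RNA, fell by 0.55 on the log2 scale (0.0146). Among the 8 genes, 3 rose and 5 fell. With the endothelial covariate Actg1, Cnn2 and Dusp5 were not called, as given above, and Myl9 was still called (edgeR adjusted p = 0.0260).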

How the data were processed

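The deposited values are whole-number counts of reads per gene. Per the file headers, the authors made these counts with featureCounts 1.5.1 against a UCSC annotation of mm10. The submitters' processing notes name CASAVA 1.8, STAR 2.5.3a and Subread 1.5.2, a version that differs from the header. STAR does not by default give alignment files the names that the header lists, so which aligner was used is uncertain. The default featureCounts settings use no strand and leave out reads that overlap several genes. Of 14 count columns, 10 matched samples by name and 4 matched none and were not used.

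Genes were filtered with filterByExpr (minimum count 10, minimum total 15), scaled by TMM and tested without covariates by quasi-likelihood in edgeR 4.0.16 under R 4.3.3, with Benjamini-Hochberg adjustment over 11870 genes. CPM uses TMM-scaled totals, and log2 CPM a prior count of 1. Alternatives were RLE, upper-quartile and library-total scaling, no filter, a mean of at least 5 CPM, DESeq2 1.42.0, voom with sample weights (limma 3.58.1), a replicate block, endothelial and Y-linked covariates, offsets over 20 bins of gene length, and leaving out each animal. Named genes are the 8 members, up to 4 called genes per list and direction with a mean of at least 10 CPM, Actn2, and the 3 genes most like each member. Genes given as not called, and Acta1, Fhl1, Dmd and Zfp36, which are shown for their promoter boxes, were chosen after their values were seen. Some named genes are not reported here. Members and lists were chosen with earlier results of these data known. Promoter sequences are from RefSeq (GRCm38.p6). In a test on simulated data made at the means of 11870 genes for the knockout and heterozygote comparison, 75.5% of 2-fold and 98.9% of 4-fold changes were recovered. Only 200 genes were changed in it, fewer than the 2241 called in the data. It held no change below 2-fold, so it gives no recovery rate for changes of the size measured for the 8 members.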

Additional observations from a re-analysis of the deposited data

Results flagged for a closer look

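In 102 groups of 5 values, a highest or lowest animal stood apart from the other 4 in 9 (gap to the nearest over the range above 0.71), where chance gives about 5.1. Among the members, Myocd was at 372.4 CPM in knockout 5 with the next knockout at 239.7. The Elk3 share of the ternary complex factors was 51.5% in heterozygote 4 with the next at 41.1%. The total of heterozygote 1 was 25237696 counts against 10309615 in the next heterozygote. Among genes of the lists, Grlf1 was at 97.6 CPM in heterozygote 1 (next 88.8), Spry4 at 31.2 in knockout 4 (next 18.4), Acta2 at 275 in knockout 5 (next 194), Nppa at 224 in heterozygote 2 (next 97.4), Actg1 at 149 in heterozygote 3 (next 110) and Ier5 at 82.3 in heterozygote 3 (next 39.5).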

How the results depend on the processing

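Of the settings of the 8 genes, 139 kept direction and side of the threshold, 18 lost a call, 2 gained one and 9 changed sign. With the endothelial covariate, 0 of the 8 genes were called, as were 1117 of all genes, 1 SRF partner, 1 ERK gene, 3 smooth muscle, 5 cytoskeletal and 3 immediate early targets. The ERK count of 4 was 1 with RLE, no filter, the replicate block or the length offset, and 2 with voom. SRF partners were 8 with library totals. Immediate early targets were 4 with the Y-linked covariate and 3 with the length offset. Sign changes were those of Mkl1 (-0.0033 with upper-quartile scaling, -0.013 with the Y-linked covariate, -0.079 with the length offset), Elk1 (-0.021) and Elk3 (0.15), both with the endothelial covariate, and the cause was not tested. Leaving out 1 animal gave 1699 to 2258 called genes, 2 to 3 of the 8, 7 to 10 actin turnover, 3 to 5 partner, 0 to 3 ERK, 4 to 7 smooth muscle, 12 to 14 striated, 6 to 9 cytoskeletal and 2 to 8 immediate early genes. It moved Mkl1 between -0.042 and 0.12 (log2) and the Elk1 share difference between -0.44 and 3.08 points. Same-numbered animals did not deviate together in every pair (correlations 0.11, -0.012, -0.060, 0.19 and 0.14), and only numbers 4 and 5 correlated best with their own. The replicate block called 2182 genes, 1961 shared, lost Elk4 (edgeR adjusted p = 0.0980) and called Abra (log2 0.47, edgeR adjusted p = 0.0208; without the block, 0.0548 to 0.370 over the fits that left out 1 animal).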

Other observations

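Across all tested genes with a RefSeq promoter window, 151 of 9462 held a CArG box. Of these 151, 21 were called higher (13.9%) and 14 lower (9.27%), beside 10% and 8.87% of all 9462. Their median log2 fold change was -0.03. These shares are descriptions and were not tested.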
